A study of Homo sapiens with 24 samples.

Results

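The transcription factor ATF4 and the genes it switches on when amino acids run short were followed in HepG2 cells, an established human liver cancer line. The set was a fixed list of 40 gene symbols matched to the count table by gene identifier. The table held 39 of them among 11927 distinct genes, and CHAC1 was not analysed here. HepG2 populations had been transduced with the lentiCRISPRv2 vector, which delivers Cas9 with a guide RNA. The control guide, sgCtrl, targeted the AAVS1 safe-harbour site, and sgKeap1-1 and sgKeap1-2 targeted KEAP1, which hands the transcription factor NRF2 to a ubiquitin ligase for degradation. Each population was transfected with a non-targeting siRNA pool (siNC) or with pools for knockdown of TFEB together with TFE3 (sitfeb/sitfe3), transcription factors of lysosomal biogenesis. RNA was taken 72 h after transfection, giving 6 groups of 4 libraries. All cells, controls included, carried Cas9 and a guide and had been through a transfection. The guide populations were selected as pools and were not described as single clones, so cells with an intact KEAP1 gene may remain in them.

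ATF4 belongs to the integrated stress response. Kinases that sense uncharged tRNA, unfolded protein in the endoplasmic reticulum, double-stranded RNA or lack of haem phosphorylate the initiation factor eIF2, which lowers general translation while favouring translation of the ATF4 mRNA. ATF4 then pairs with C/EBP proteins on composite DNA elements and raises the genes for amino acid synthesis, amino acid import and tRNA charging, together with its own antagonists. Much of this control acts on translation, so the level of the ATF4 mRNA is not a measure of the ATF4 protein, which was not measured in these libraries.

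ATF4 with its C/EBP partners binds the composite element, and the matches found in the window from 250 bases before to 50 bases after the annotated start are shown for genes from different roles. The letters TGATGNAA, searched on both strands, occurred in 10 of the 33 members with a RefSeq promoter (30.3%) and in 3.67% of 27305 promoters of the same length. The sequences are RefSeq sequences of build GRCh38.p14, written along the gene's strand, with the matched letters in capitals.
ASNS, 68 bases before the start (chr7:97872458-97872487, minus strand): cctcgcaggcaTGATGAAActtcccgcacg
ATF3, 191 bases before the start (chr1:212565205-212565234, plus strand): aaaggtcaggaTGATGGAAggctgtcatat
AARS1, 187 bases before the start (chr16:70289675-70289704, minus strand): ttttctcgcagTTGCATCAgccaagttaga
IARS1, 13 bases before the start (chr9:92293692-92293721, minus strand): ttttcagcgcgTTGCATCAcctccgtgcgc
MARS1, 4 bases before the start (chr12:57488053-57488082, plus strand): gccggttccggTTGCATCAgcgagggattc
In AARS1, IARS1 and MARS1 the match lay on the opposite strand and reads as TTGCATCA. The members were listed as ATF4 targets, so this share describes the list. The antioxidant response element that NRF2 binds, searched as TGACNNNGC on both strands, occurred in 11 of the 33 member promoters (33.33%) and in 13.56% of all. The E-box CACGTG, a core of the site of TFEB and TFE3, occurred in 3 of the 33 (9.09%) and in 7.43% of all. One of those 3 was the ATF4 promoter itself, 82 bases before the start (chr22:39520466-39520493, plus strand):
ATF4: gaggagacggtCACGTGgtcgcggcgga

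The libraries held 3527000 to 4600951 reads, and all 39 members passed the filter on low counts, among 11152 genes tested. Levels are given as CPM, the reads of a gene scaled by library size. KEAP1 mRNA was lower with sgKeap1-1 under siNC (log2 fold change -0.66, SE 0.11, adjusted p 1.02e-04). With sgKeap1-2 it differed from sgCtrl by -0.14 (SE 0.10, adjusted p 0.448), and a guide can disrupt a protein without lowering its mRNA. NRF2 targets were higher with both guides, 6 of the 8 tested with sgKeap1-1 and 7 of 8 with sgKeap1-2. TFE3 fell on knockdown in every background (log2 -1.57, -1.74 and -1.69). TFEB changed by -1.96 in sgCtrl cells (adjusted p 0.0858, not past the threshold of 0.05) and passed in both KEAP1 populations. The liver markers ALB, AFP, APOA1, TTR and SERPINA1 were detected in every library. ALB, AFP and APOA1, 3 of these 5, were lower with both guides under both siRNA treatments, with every KEAP1 library below every control. Under siNC ALB stood at 10885 ± 1641 CPM with sgCtrl, 4449 ± 352 CPM with sgKeap1-1 and 4661 ± 352 CPM with sgKeap1-2 (SD, n = 4), with log2 changes of -1.28 (adjusted p 6.99e-09) and -1.21 (adjusted p 8.61e-09). AFP changed by -1.80 and -2.02 and APOA1 by -0.74 and -0.82 there, while TTR (0.01 and -0.10) and SERPINA1 (-0.09 and 0.13) did not pass. Of the other cell types' markers, PTPRC, PECAM1 and COL1A2 were not in the table analysed here and PDGFRB stayed between 1.34 and 11.6 CPM. The library siNC; sgKeap1-1 replicate 1 and the library sitfeb/sitfe3; sgKeap1-2 replicate 1 stood apart: the median gene deviated from its group mean by 0.268 and 0.271 on the log2 scale in them and by at most 0.18 in the other libraries. In bulk RNA, a change in how many cells express a gene and a change in the RNA per cell cannot be told apart.

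The first question was how the KEAP1 guides changed the ATF4 response in siNC cells. PHGDH, the first enzyme of serine synthesis, was lower with both guides, and it was the sole member called with sgKeap1-1 (1 of 39, lower, against 10.9% of all genes tested, 6.01% higher and 4.91% lower). With sgKeap1-2, 4 of 39 members passed (10.3%, against 14.7% of all genes, 7.58% higher and 7.14% lower): SLC3A2, PPP1R15A and WARS1 were higher and PHGDH lower. ATF4 itself did not pass with either guide. The median member change was -0.076 with sgKeap1-1 and 0.177 with sgKeap1-2 on the log2 scale, beside -0.021 and -0.003 over all genes. Both guides are set against the same sgCtrl libraries. The fit does not include the replicate number of the libraries, which is described below. With that number as a block, both counts and the shares of all genes were larger, as given at the end. There the share of members called with sgKeap1-2 lay above that of all genes, where the fit above puts it below. ALB, AFP and APOA1 fell in the same comparisons, and the part of that shift in the member changes was not tested.

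ATF4 (GRCh37, chromosome 22, 39915700 to 39918688) stood at 634, 1325, 1073 and 1272 CPM in the siNC; sgCtrl libraries 1 to 4. With sgKeap1-1 it stood at 1088, 819, 818 and 816 CPM. With sgKeap1-2 it stood at 773, 1005, 838 and 923 CPM. The control libraries covered the widest range and enclosed all 8 KEAP1 libraries. Library 1 was the lowest of the controls and the highest of the sgKeap1-1 libraries. The group means were 1076 ± 314, 885 ± 135 and 885 ± 101 CPM (SD, n = 4 each), and the log2 change was -0.24 with sgKeap1-1 (SE 0.19, adjusted p 0.50) and -0.23 with sgKeap1-2 (SE 0.19, adjusted p 0.48).

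**Figure D1:**
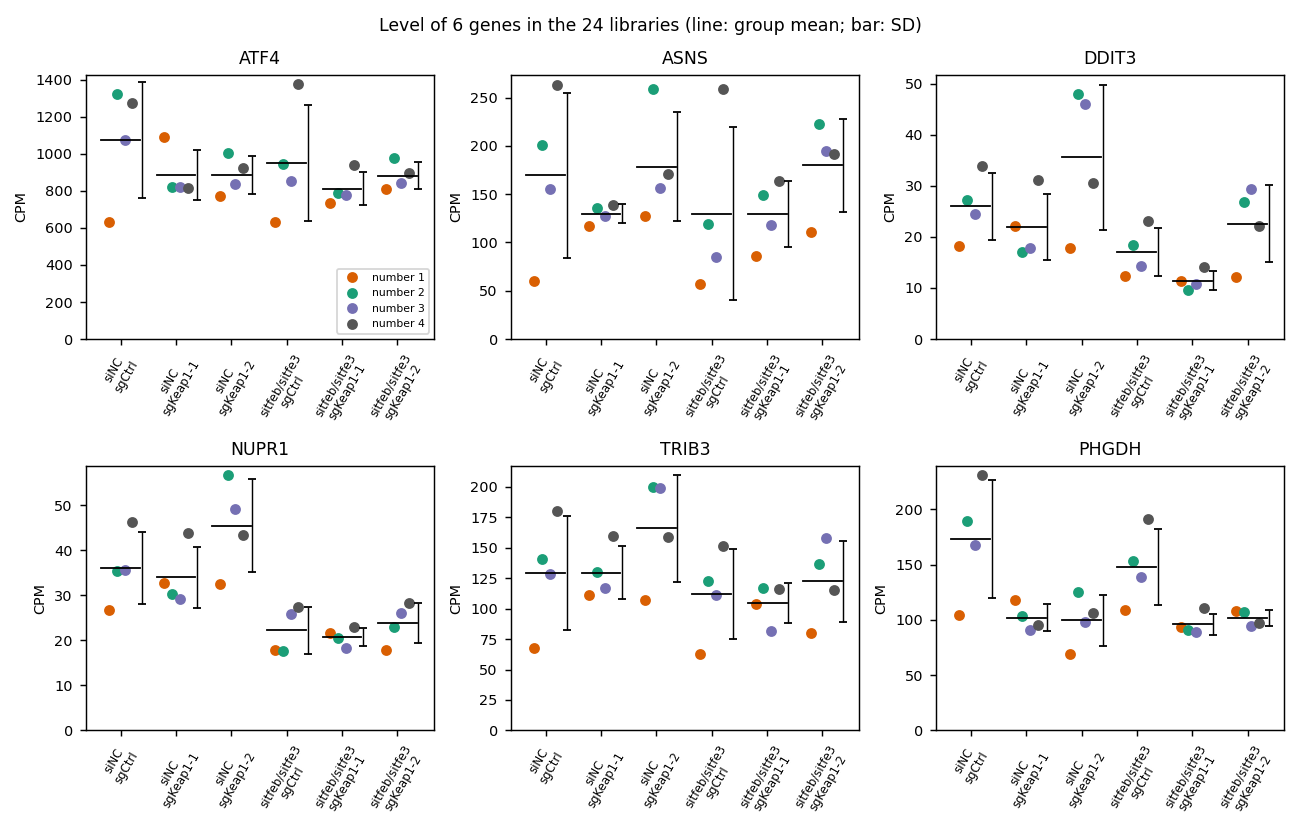
CPM (y axis, from 0) of ATF4, ASNS, DDIT3, NUPR1, TRIB3 and PHGDH in each library of the 6 groups (x axis), coloured by replicate number, with the group mean (line) and SD (bar, n = 4). ATF4 and ASNS spread most in the sgCtrl groups, where number 1 is the lowest point, and NUPR1 is lower in the sitfeb/sitfe3 groups.

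The other regulators include the partners and antagonists of ATF4 and the brakes on the response. DDIT3 (CHOP), the factor tied to stress-induced cell death, stood at 26 ± 6.5 CPM in siNC; sgCtrl (SD, n = 4), with log2 changes of -0.24 (SE 0.29) and 0.39 (SE 0.27) that did not pass. TRIB3, a pseudokinase that inhibits ATF4, stood at 129 ± 46.7, 129 ± 21.8 and 166 ± 43.9 CPM (SD, n = 4) in the 3 siNC groups, and its changes of 0.07 and 0.40 did not pass. PPP1R15A, which encodes GADD34, the phosphatase subunit that reverses eIF2 phosphorylation, read 8.89, 16.2, 18.4 and 15.3 CPM in siNC; sgCtrl and 21.2, 46.8, 33.2 and 40.0 CPM in siNC; sgKeap1-2. Those 2 groups did not overlap (log2 fold change 1.26, SE 0.30, adjusted p 0.0050). With sgKeap1-1 PPP1R15A read 15.1, 26.1, 21.1 and 49.4 CPM, and the change of 0.84 missed the threshold (SE 0.32, adjusted p 0.0921). The promoter of PPP1R15A held the antioxidant element letters at 2 positions, 179 and 152 bases before the start. ATF3, CEBPB, CEBPG, JDP2, NUPR1, DDIT4 and SESN2 did not pass with either guide, and their changes ran from -0.40 for CEBPG with sgKeap1-1 to 0.70 for DDIT4 with sgKeap1-2.

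PHGDH (GRCh37, chromosome 1, 120191034 to 120286841) stood at 104, 189, 168 and 231 CPM in siNC; sgCtrl. It stood at 118, 104, 90.7 and 95.5 CPM with sgKeap1-1 and at 69.2, 125, 98.5 and 106 CPM with sgKeap1-2. The ranges met only through control library 1, whose level lay among the KEAP1 libraries. The log2 change was -0.71 with sgKeap1-1 (SE 0.19, adjusted p 0.0134) and -0.77 with sgKeap1-2 (SE 0.19, adjusted p 0.0064). The sgKeap1-1 call was lost without siNC; sgCtrl replicate 2 (adjusted p 0.0505), siNC; sgCtrl replicate 4 (0.0825) or siNC; sgKeap1-1 replicate 3 (0.0523), and the sgKeap1-2 call was kept without any 1 of the 8 libraries. The next steps of the pathway, PSAT1 (-0.44 and -0.12) and PSPH (-0.20 and -0.18), and the mitochondrial folate enzymes SHMT2 (-0.28 and -0.15) and MTHFD2 (-0.42 and -0.01) did not pass. ALDH1L2, another mitochondrial folate enzyme, had too few reads for a firm value under siNC, at 0.254 to 4.58 CPM, where the lowest library holds a single read.

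ASNS, which makes asparagine and is a standard readout of ATF4, stood at 59.7, 201, 155 and 263 CPM in siNC; sgCtrl. It stood at 117, 136, 127 and 138 CPM with sgKeap1-1 and at 127, 259, 157 and 171 CPM with sgKeap1-2. The range of the control libraries enclosed all 8 KEAP1 libraries, and neither change passed (-0.20, SE 0.37, and 0.21, SE 0.36). CTH, which makes cysteine from cystathionine, changed by -0.28 and 0.66 and did not pass. The sign of the ASNS change turned to 0.08 with sgKeap1-1 without siNC; sgCtrl replicate 4, and to -0.23 with sgKeap1-2 without siNC; sgCtrl replicate 1.

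Of the 5 transporters, SLC3A2, the heavy chain shared by the cystine and large neutral amino acid exchangers, was higher with sgKeap1-2. It stood at 142, 167, 159 and 204 CPM in siNC; sgCtrl and at 201, 289, 276 and 262 CPM in siNC; sgKeap1-2 (log2 fold change 0.61, SE 0.13, adjusted p 0.0017). All but the lowest sgKeap1-2 library lay above every control. With sgKeap1-1 it stood at 188, 219, 200 and 244 CPM, with a change of 0.34 that missed the threshold (SE 0.13, adjusted p 0.103). Its light chain partner SLC7A5 (0.05 and -0.01), the glutamine carriers SLC38A2 (-0.13 and 0.10) and SLC1A5 (0.26 and 0.38) and the cationic amino acid carrier SLC7A1 (-0.04 and 0.20) did not pass. SLC3A2 held both the composite letters, 37 bases after the start, and the antioxidant element letters, 37 bases before it.

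Under siNC, the 12 listed cytosolic tRNA synthetases, which charge tRNAs, and the tRNA exporter XPOT gave 0 calls of 13 with sgKeap1-1. With sgKeap1-2 they gave 1 of 13 (7.69%). The shares of all genes called were 10.9% and 14.7%. WARS1, the tryptophanyl enzyme, stood at 38.6, 40.9, 42.8 and 48.8 CPM in siNC; sgCtrl and at 46.9, 70.8, 65.5 and 55.2 CPM in siNC; sgKeap1-2 (log2 fold change 0.47, SE 0.15, adjusted p 0.0406). That call held without siNC; sgKeap1-2 replicate 1 or siNC; sgCtrl replicate 4 and was lost without any other 1 of the 8 libraries (adjusted p 0.0569 to 0.148). With sgKeap1-2, 12 of the 13 had a change above 0, with a median of 0.155 beside -0.003 over all genes. With sgKeap1-1, 8 of the 13 did, with a median of 0.058 beside -0.021. CARS1 was low and uneven, from 0.263 to 24.2 CPM over all libraries, and nothing is read from it. STC2, a secreted glycoprotein of the stressed endoplasmic reticulum, changed by 0.40 and 0.73, and VLDLR, a lipoprotein receptor raised by ATF4, by -0.30 and 1.17, without passing.

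**Figure D2:**
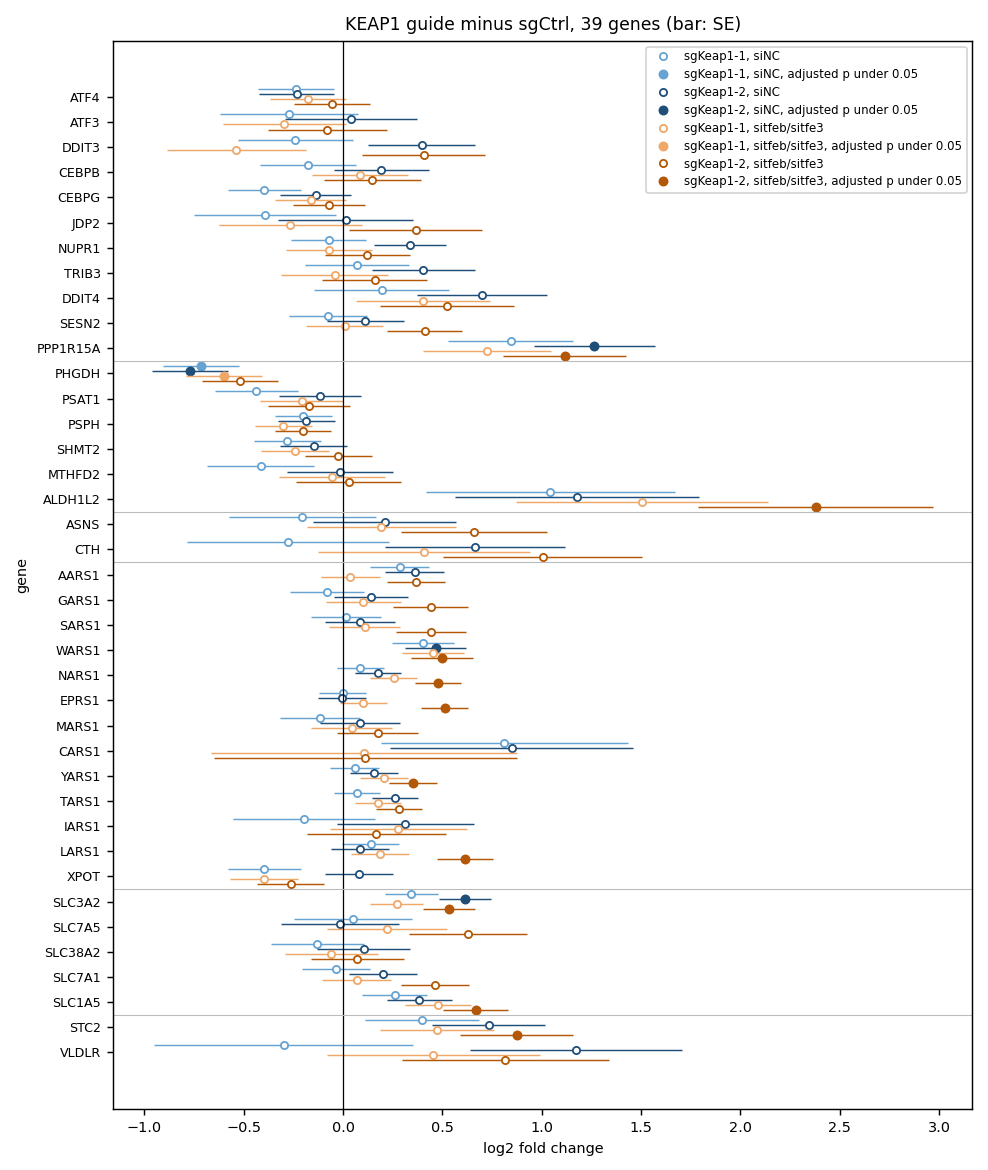
Log2 fold change (x axis) of the 39 genes (y axis, by role) for each KEAP1 guide against sgCtrl, under siNC (blue) and sitfeb/sitfe3 (orange; the darker shade is sgKeap1-2), with the SE as bars. Filled points have an adjusted p under 0.05. PHGDH lies left of 0 in all 4 comparisons, and PPP1R15A, SLC3A2 and WARS1 lie right of 0, with the most filled points for sgKeap1-2 under sitfeb/sitfe3.

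The same comparison was made in cells with TFEB and TFE3 knocked down. With sgKeap1-1, PHGDH was again the sole member called (1 of 39, lower, against 10.5% of all genes, 5.69% higher and 4.81% lower). It stood at 148 ± 34.1 CPM in sitfeb/sitfe3 controls and at 95.8 ± 9.91 CPM with sgKeap1-1 (SD, n = 4). The log2 change was -0.60 (SE 0.19, adjusted p 0.0433). This call held only without sitfeb/sitfe3; sgCtrl replicate 1 and was lost without any other 1 of the 8 libraries (adjusted p 0.0515 to 0.174). With sgKeap1-2, 10 of 39 members passed, all of them higher (25.6%, against 20.2% of all genes, 10.6% higher and 9.59% lower). Of the 13 tRNA charging and export genes, 5 were among them, the leucyl, glutamyl-prolyl, asparaginyl, tryptophanyl and tyrosyl enzymes. With the replicate number as a block, both counts and the shares of all genes were again larger. The share of members called stayed above that of all genes with sgKeap1-2 and below it with sgKeap1-1. The median member change was 0.368 with sgKeap1-2 and 0.101 with sgKeap1-1, beside 0.009 and 0.003 over all genes. Here too ALB, AFP and APOA1 were lower with both guides, AFP by most, with log2 changes of -1.43 with sgKeap1-1 and -2.32 with sgKeap1-2, and their part was not tested.

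LARS1 showed how far 1 library entered these calls. It stood at 46.8, 54.8, 59.1 and 52.3 CPM in sitfeb/sitfe3; sgCtrl and at 123, 70.9, 71.1 and 73.4 CPM in sitfeb/sitfe3; sgKeap1-2 (log2 fold change 0.61, SE 0.14, adjusted p 0.0023). Library 1 of the KEAP1 group, which stood apart, was far above the other 3, yet those also lay above every control. EPRS1 followed the same order, at 261 CPM in that library and 171 to 211 CPM in the other 3, against 125 to 161 CPM in the controls (log2 fold change 0.51, SE 0.12, adjusted p 0.0024). NARS1 stood at 358 CPM there and 228 to 253 CPM in the other 3, against 166 to 209 CPM (0.48, SE 0.12, adjusted p 0.0038). All 3 calls were kept without any 1 library. WARS1 (0.50, SE 0.15, adjusted p 0.0223) was lost without sitfeb/sitfe3; sgCtrl replicate 1 or 2 or sitfeb/sitfe3; sgKeap1-2 replicate 2 or 3 (adjusted p 0.0656 to 0.112). YARS1 (0.35, SE 0.12, adjusted p 0.0389) held without sitfeb/sitfe3; sgKeap1-2 replicate 3 or sitfeb/sitfe3; sgCtrl replicate 4 and was lost without any other 1 of the 8 (0.0513 to 0.132).

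Among the carriers SLC3A2 rose from 170 ± 9.8 to 248 ± 44.8 CPM (SD, n = 4), a log2 change of 0.53 (SE 0.13, adjusted p 0.0041). SLC1A5, the neutral amino acid carrier, rose from 148 ± 29.2 to 233 ± 35 CPM (SD, n = 4), with a log2 change of 0.67 (SE 0.16, adjusted p 0.0042). PPP1R15A read 10.3, 14, 15.8 and 14.4 CPM in sitfeb/sitfe3; sgCtrl and 24.4, 31.2, 27.5 and 34.5 CPM in sitfeb/sitfe3; sgKeap1-2 (1.11, SE 0.31, adjusted p 0.0107), with no overlap. STC2 rose from 148 ± 45.0 to 265 ± 53.8 CPM (SD, n = 4), by 0.87 on the log2 scale (SE 0.28, adjusted p 0.0290). This call was lost without sitfeb/sitfe3; sgCtrl replicate 1 or 3 or sitfeb/sitfe3; sgKeap1-2 replicate 2, 3 or 4 (adjusted p 0.0601 to 0.134). ALDH1L2 read 0.263, 0.724, 0.927 and 1.24 CPM in the controls and 8.35, 3.69, 5.22 and 2.32 CPM with sgKeap1-2 (2.38, SE 0.59, adjusted p 0.0045), from counts of few reads and at a 3′ end that NOPCHAP1 overlaps on the other strand. PHGDH, at 102 ± 7.09 CPM (SD, n = 4), had a change of -0.52 that missed the threshold (SE 0.19, adjusted p 0.0556). Without sitfeb/sitfe3; sgCtrl replicate 4, the count with sgKeap1-2 was 16 of 39 (18.6% of all genes in that fit).

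Whether the guides differed from each other under siNC and whether the KEAP1 change, averaged over the guides, depended on TFEB and TFE3 was tested. No member passed for sgKeap1-2 against sgKeap1-1 under siNC (0 of 39 by limma, edgeR and DESeq2, against 0% of all genes), and 5 members had an unadjusted p under 0.05, as did 598 of the 11152 genes. Those 5, DDIT3, NUPR1, XPOT, SLC3A2 and VLDLR, had values of 0.64, 0.41, 0.48, 0.27 and 1.47 on the log2 scale. The difference lay above 0 for 35 of 39 members, with a median of 0.234 beside 0.010 over all genes. Among lists described below, it did so for 18 of 19 unfolded protein response genes (median 0.147). The counts were 12 of 18 further ATF4 targets (0.129) and 7 of 20 stress sensors and eIF2 factors (-0.019). Replicate 1 of siNC; sgKeap1-1, which stood apart, was the lowest of its group for 22 of 39 members, and its part was not tested. None passed for the interaction, the KEAP1 change under sitfeb/sitfe3 minus that under siNC averaged over the guides (0 of 39 by the 3 tools, against 0% of all genes), and 1 member had an unadjusted p under 0.05, EPRS1 (0.31, SE 0.15), as did 349 genes. The larger count under knockdown, seen with sgKeap1-2, is not shown to differ from that under siNC. The interaction averages both guides, so it does not test sgKeap1-2 by itself. The guides were not set against each other under sitfeb/sitfe3.

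Knockdown of TFEB and TFE3 lowered NUPR1 and DDIT3, stress regulators downstream of ATF4, when its effect was averaged over the 3 guide backgrounds (2 of 39 members, both lower, against 2.33% of all genes, 0.942% higher and 1.39% lower). NUPR1, a small chromatin-associated stress protein, stood at 26.7, 35.4, 35.6 and 46.2 CPM in siNC; sgCtrl and at 17.9, 17.6, 25.9 and 27.5 CPM in sitfeb/sitfe3; sgCtrl. With sgKeap1-1 it stood at 32.8, 30.3, 29.2 and 43.9 CPM under siNC and at 21.5, 20.5, 18.2 and 23.0 CPM under sitfeb/sitfe3. With sgKeap1-2 it stood at 32.5, 56.8, 49.3 and 43.5 CPM and at 17.9, 22.9, 26.1 and 28.3 CPM. Knockdown libraries lay below every siNC library in both KEAP1 populations, and in sgCtrl cells the 2 groups met at their edges. The averaged log2 change was -0.77 (SE 0.12, adjusted p 2.55e-04), and it was kept without any 1 of the 24 libraries (adjusted p 7.86e-05 to 9.55e-04). NUPR1 lies at chromosome 16, 28544029 to 28550329 (GRCh37).

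DDIT3 was lower in every knockdown library than in the siNC library of the same number and background, though the test did not take the numbers as pairs. In siNC cells it read 18.3, 27.2, 24.4 and 34.0 CPM with sgCtrl, 22.2, 17.0, 17.8 and 31.1 CPM with sgKeap1-1, and 17.8, 47.9, 46.1 and 30.6 CPM with sgKeap1-2. In sitfeb/sitfe3 cells it read 12.4, 18.3, 14.4 and 23.0 CPM, then 11.3, 9.64, 10.7 and 14.2 CPM, then 12.1, 26.8, 29.3 and 22.2 CPM. The groups were separate with sgKeap1-1 and overlapped in the other backgrounds. The averaged change was -0.71 (SE 0.18, adjusted p 0.0264), and leaving out 1 library in turn lost the call for 8 of 24 (adjusted p 0.0509 to 0.062). Those 8 were siNC; sgCtrl replicates 2 and 4, siNC; sgKeap1-1 replicate 4, siNC; sgKeap1-2 replicate 3, sitfeb/sitfe3; sgCtrl replicates 1 and 3, and sitfeb/sitfe3; sgKeap1-1 replicates 2 and 3. DDIT3 and MARS1 overlap by 982 bases at their 3′ ends on opposite strands of chromosome 12, where 3′ reads fall, and the strand setting of the counting is not given in the sources used here, so the split of reads between them is uncertain. MARS1 changed by -0.09 (SE 0.12).

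Within single backgrounds the knockdown called few members. In sgCtrl cells 0 of 39 passed by limma, edgeR or DESeq2 (0.0179% of all genes by limma, all of them lower), and 1 had an unadjusted p under 0.05. With sgKeap1-1, 0 of 39 passed by any of the 3 (0.0897% of all genes by limma, 0.0179% higher and 0.0717% lower), and 2 had an unadjusted p under 0.05. With sgKeap1-2, NUPR1 passed (1 of 39, lower, against 0.359% of all genes, 0.0986% higher and 0.26% lower). Its log2 change was -0.91 (SE 0.19, adjusted p 0.0419), and it held only without siNC; sgKeap1-2 replicate 1, being lost without any other 1 of the 8 libraries (adjusted p 0.0613 to 0.144). ATF4 changed by -0.18, -0.12 and 0.00 in the 3 backgrounds, at 629, 945, 852 and 1375 CPM in sitfeb/sitfe3; sgCtrl, 734, 791, 780 and 940 CPM with sgKeap1-1 and 813, 979, 840 and 897 CPM with sgKeap1-2. The 5 transporters changed on average over the backgrounds by -0.11 to -0.01, and no enzyme of serine, asparagine or cysteine synthesis passed. TRIB3 changed by -0.31 (SE 0.15, adjusted p 0.397).

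**Figure D3:**
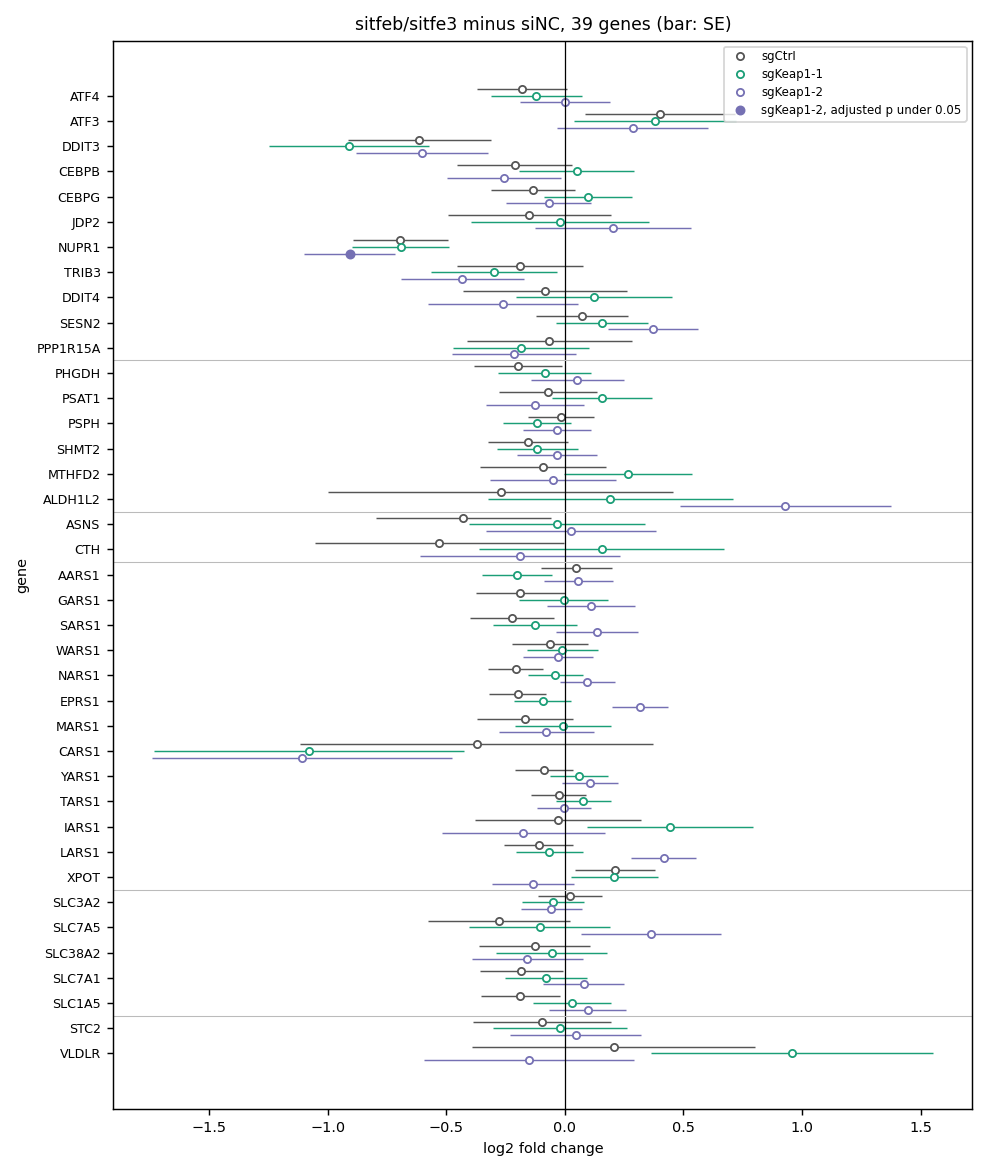
Log2 fold change (x axis) of sitfeb/sitfe3 against siNC for the 39 genes (y axis, by role) in sgCtrl, sgKeap1-1 and sgKeap1-2 cells, with the SE as bars. The filled point has an adjusted p under 0.05. NUPR1 and DDIT3 lie left of 0 in all 3 backgrounds, between -0.91 and -0.60.

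Levels also differed between libraries within the groups. The library names carry a mark that the 6 libraries of a replicate number share (1-11, 2-11, 29-10 and 31-10 for numbers 1 to 4), and the labels do not say what it stands for. With the group means taken out, 18 of 39 members differed between the 4 numbers (46.2%, against 4.84% of all genes, limma F test). In each of the 18, the number 1 libraries were below the mean of the others. Number 1 was the lowest library in all 6 groups for 13 of 39 members (33.3%), and for 1.17% of all genes tested and for 18.7% of the 540 genes that passed. Over all 39, 35 lay below 0 in number 1 (89.7%, median -0.326), beside 49.7% and a median of 0.003 over all genes.

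SLC38A2, the amino acid carrier SNAT2, which is itself raised by amino acid shortage, had the strongest dependence (F 44.1, adjusted p 2.17e-06). It stood at 792, 1629, 1274 and 1532 CPM in siNC; sgCtrl and at 783, 1487, 1029 and 1467 CPM in siNC; sgKeap1-1. It stood at 987, 1742, 1418 and 1377 CPM in siNC; sgKeap1-2. Under sitfeb/sitfe3 it stood at 752, 1475, 1217 and 1308 CPM with sgCtrl, 879, 1362, 970 and 1288 CPM with sgKeap1-1, and 908, 1334, 1296 and 1371 CPM with sgKeap1-2. Number 1 was the lowest of the 4 in every group, and its difference from the mean of numbers 2 to 4 was -0.68 (SE 0.06) on the log2 scale.

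The next members in order of F came from other roles. STC2 had a number 1 difference of -0.83 on the log2 scale (F 28.1, adjusted p 6.57e-05), from 75.9 CPM in library 1 of siNC; sgCtrl to 155 to 216 CPM in its other 3 libraries. MTHFD2 differed by -0.74 (F 22.9, adjusted p 2.23e-04), at 133 CPM against 251 to 390 CPM in the same group. DDIT4 (REDD1), which restrains the mTORC1 kinase, differed by -0.95 (F 20.7, adjusted p 3.52e-04), at 25.9 CPM against 58.3 to 71.3 CPM. MARS1, the methionyl enzyme, differed by -0.58 (F 20.5, adjusted p 3.52e-04), at 145 CPM against 213 to 252 CPM. Each of these 4 was lowest in number 1 in all 6 groups.

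By role, 7 of 11 regulators passed (CEBPB, DDIT4, ATF3, TRIB3, PPP1R15A, SESN2 and JDP2), and both ASNS and CTH. The number 1 difference was -0.90 for ASNS (SE 0.16) and -1.33 for CTH (SE 0.23) on the log2 scale. MTHFD2 and PSAT1 passed among the 6 serine and folate enzymes, SLC38A2 and SLC3A2 among the 5 transporters, and STC2 and VLDLR both. Of the 13 tRNA charging and export genes only MARS1, GARS1 and TARS1 passed, and NARS1, LARS1 and EPRS1 differed between numbers by F values of 0.078 to 0.549. ATF4 did not pass (F 3.82, adjusted p 0.169), with a number 1 difference of -0.31 (SE 0.11) and number 1 lowest in 5 of 6 groups. PHGDH did not pass either (adjusted p 0.168).

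**Figure D4:**
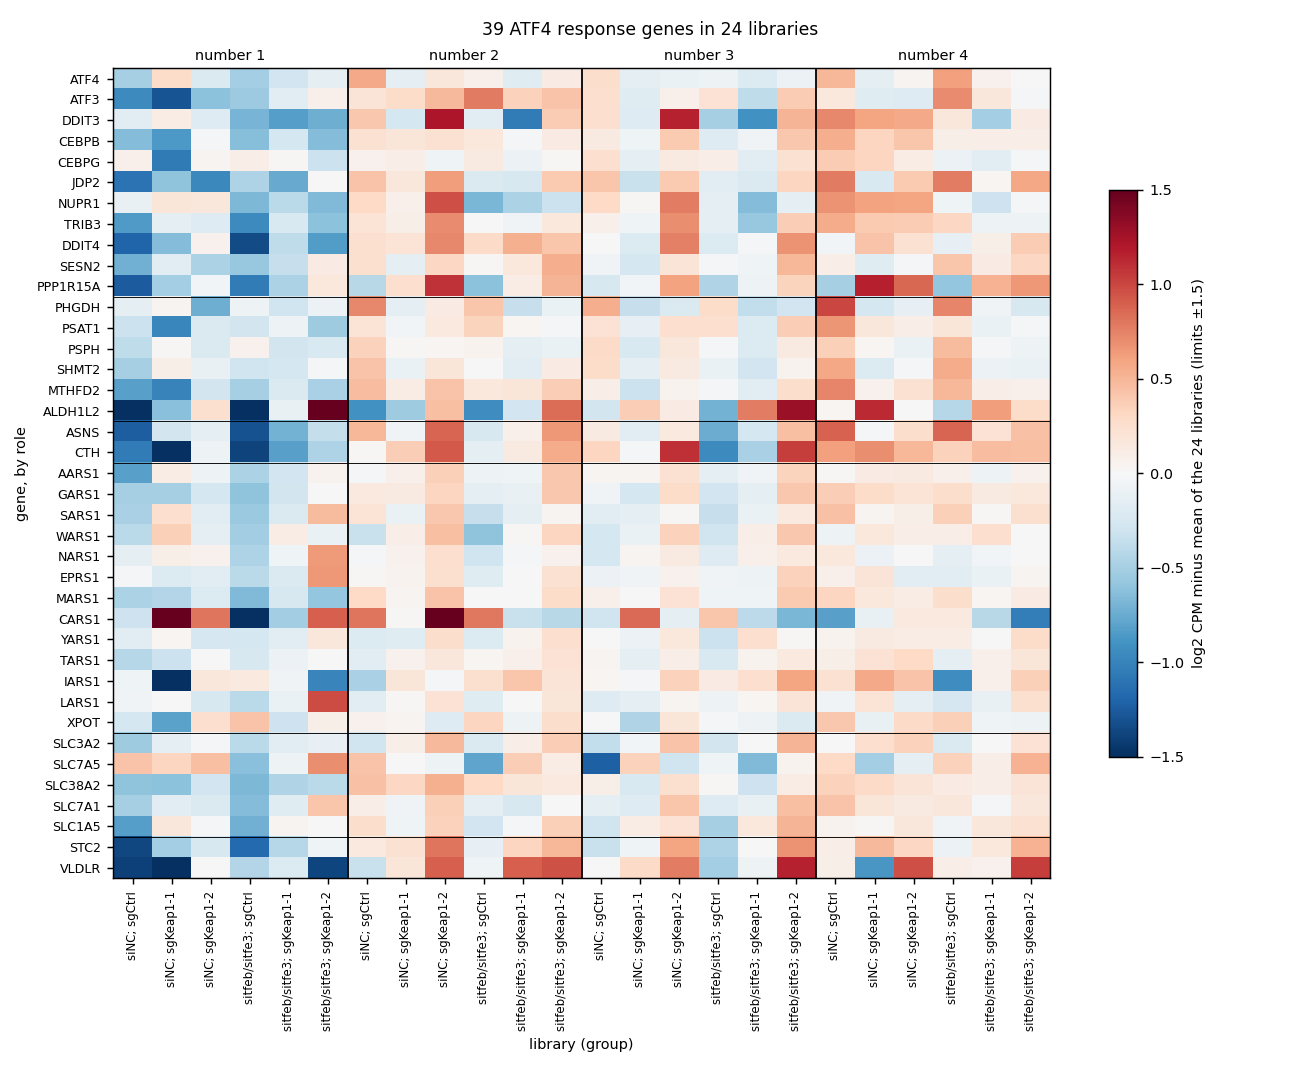
Log2 CPM of the 39 genes (rows, by role) in the 24 libraries (columns, by replicate number and then group), as the difference from the mean of all 24, with colours limited to ±1.5. The 6 columns of number 1 are blue for most genes, with ATF4 in siNC; sgKeap1-1 and LARS1, NARS1 and EPRS1 in sitfeb/sitfe3; sgKeap1-2 among the red exceptions.

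**Figure D5:**
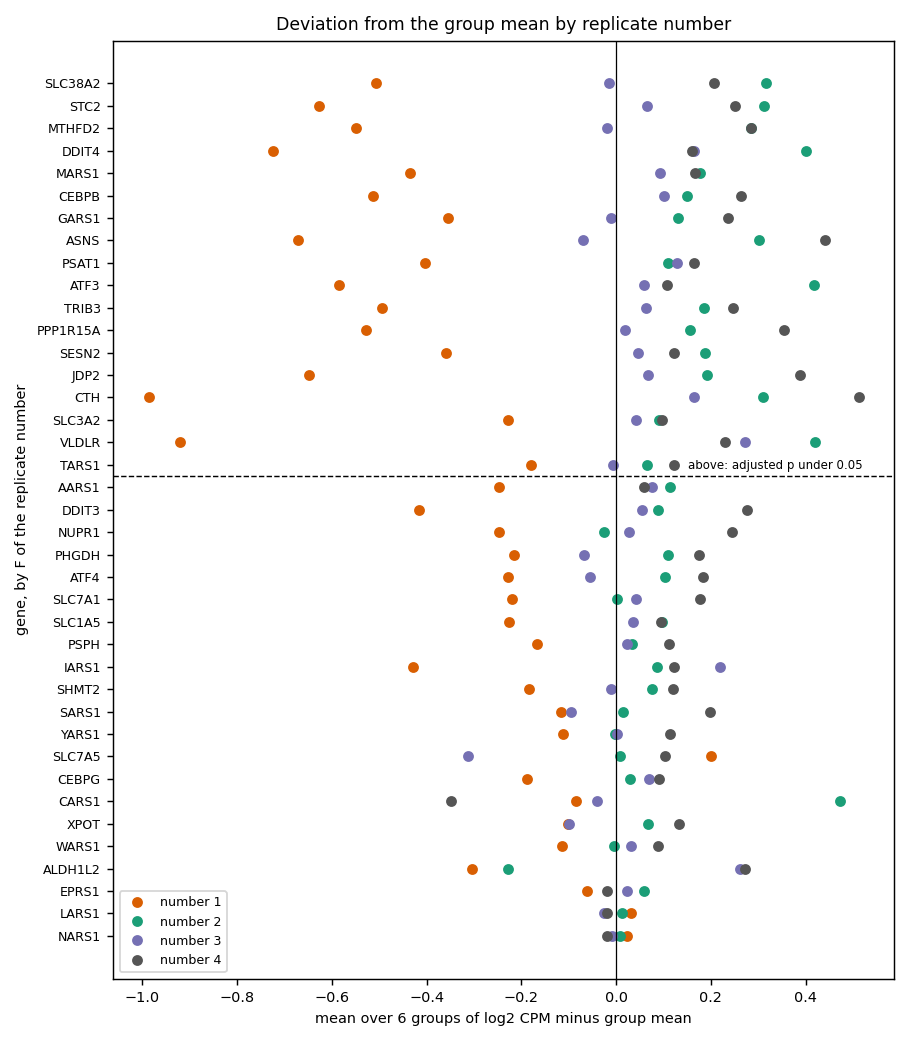
Mean over the 6 groups of the difference in log2 CPM from the group mean (x axis) for each replicate number, for the 39 genes (y axis) in order of F, with the 18 that passed above the dashed line. Number 1 is the leftmost point in those 18, from -0.179 for TARS1 to -0.986 for CTH.

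The number 1 libraries held 3527000 to 4173663 reads and the others 3575348 to 4600951, and the share of reads without a gene identifier was 1.55 to 2.57% in number 1 and 1.35 to 1.76% in the others. The part of these in the result was not tested. Without number 1, 0 members and 8 genes (0.0715%) passed the F test over the remaining numbers. Without another number 13 to 17 members passed (1.93 to 3.54% of all genes), and without the library siNC; sgCtrl replicate 1 alone 11 members passed (2.32% of all genes). Without the 2 libraries that stood apart, 18 passed (4.07% of all genes). Of the liver markers, AFP also differed between the numbers (adjusted p 0.0058), and ALB, APOA1, TTR and SERPINA1 did not pass. Of the 18 members that passed, all with a RefSeq promoter, 5 held the composite letters, as did 5 of the 15 others with a promoter.

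The spread within groups was not alike. The median SD of the members on the log2 scale was 0.422 in siNC; sgCtrl and 0.362 in sitfeb/sitfe3; sgCtrl (n = 4 libraries each), beside 0.221 and 0.225 over all genes. In the 4 KEAP1 groups it was 0.150 to 0.274, beside 0.186 to 0.281 over all genes. For ATF4 the SD was 0.489 and 0.465 in the sgCtrl groups and 0.119 to 0.206 in the KEAP1 groups. This difference in spread was not tested.

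The KEAP1 comparisons were repeated without number 1, a choice made after seeing the data. ATF4 then passed as lower with both guides under siNC. Its log2 change was -0.58 for sgKeap1-1 (SE 0.12, adjusted p 0.0015) and -0.41 for sgKeap1-2 (SE 0.12, adjusted p 0.0179). With sgKeap1-1, 9 members passed (against 14.5% of all genes): PHGDH, PSAT1, PSPH, SHMT2, MTHFD2, JDP2 and ATF4 lower, SLC3A2 and PPP1R15A higher. That is 5 of the 6 serine and folate enzymes. In siNC; sgCtrl number 1 was the lowest of 4 for 31 of 39 members, and in siNC; sgKeap1-1 for 22. Leaving number 1 out thus raises the control mean of those 31, and the part of this in the calls was not tested. With sgKeap1-2, 8 passed (against 18.9%), PHGDH and ATF4 lower and SLC3A2, VLDLR, WARS1, STC2, PPP1R15A and DDIT4 higher. Under sitfeb/sitfe3, 4 passed with sgKeap1-1 (against 15.5%) and 16 with sgKeap1-2 (against 23.2%), PHGDH lower among both. For the averaged knockdown effect, TRIB3 (-0.35, SE 0.09, adjusted p 0.0236) joined DDIT3 and NUPR1 (3 of 39, against 4.25%). Within single backgrounds NUPR1 alone passed, with sgKeap1-2 (against 0.975%), and 0 members passed in sgCtrl (against 0.116%) and sgKeap1-1 cells (against 0.331%). With 3 libraries per group, these values leave the numbers 2 to 4 as the whole sample.

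Without the 2 libraries that stood apart, the counts were 3 (against 14.3%) and 6 (against 20.5%) under siNC for sgKeap1-1 and sgKeap1-2. They were 3 (against 14.7%) and 17 (against 23.2%) under sitfeb/sitfe3. PHGDH was lower and passed in all 4. The averaged knockdown effect again called DDIT3 and NUPR1 (against 3.83%), and in sgKeap1-2 cells alone NUPR1 no longer passed (-0.80, adjusted p 0.0555, against 0.612% of all genes). In sgCtrl and sgKeap1-1 cells 0 members passed, against 0.0355% and 0.204%.

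Other genes around the pathway were counted from lists. Under siNC the shares of all genes called were 10.9% with sgKeap1-1 and 14.7% with sgKeap1-2, and each list's count is set beside them. Of 18 further ATF4 targets tested, 1 passed with sgKeap1-1 (5.56%, lower) and 5 with sgKeap1-2 (27.8%, 2 higher and 3 lower). ALDH18A1, which makes the proline precursor, was lower with both, with log2 changes of -0.80 (adjusted p 0.0026) and -0.59 (adjusted p 0.0194), from 177 CPM in controls to 107 and 117 CPM. With sgKeap1-2, SLC7A11 (1.23, adjusted p 0.0085) and GDF15 (0.78, adjusted p 0.0238) were higher and GPT2 (-0.50) and SLC6A9 (-0.98) lower, 4 genes named after their values were seen. SLC7A11 is also in the list of NRF2 targets that served as a check, so it is counted in both lists. Of 20 stress sensors and eIF2 factors, 1 passed with each guide (5%), EIF2B2, a subunit of the eIF2 exchange factor, higher by 0.52 and 0.44 on the log2 scale. Of 19 genes of the endoplasmic reticulum unfolded protein response, 1 and 2 passed (5.26% and 10.5%), all higher. HYOU1, an ER chaperone, was at 0.40 and 0.44 with the respective guides. Calls this few do not place these lists above or below the share of all genes. Of the 19, 14 and 17 had a change above 0, with medians of 0.125 and 0.259 beside -0.021 and -0.003 over all genes. At an unadjusted p under 0.05 there were 2 and 8, beside 2587 and 2957 of the 11152 genes. Of 10 other cytosolic synthetases and complex members, 1 and 0 passed, and of 16 mitochondrial synthetases 0 and 0 (2 and 0 at an unadjusted p under 0.05).

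For the replicate number, 8 of the 18 further ATF4 targets passed (44.4%, against 4.84% of all genes), all lower in number 1. They included SLC7A11, the cystine carrier that pairs with SLC3A2, at -0.94 on the log2 scale (SE 0.10), INHBE at -1.36 (SE 0.19) and GDF15 at -0.69 (SE 0.06). Of the 19 unfolded protein response genes, 3 passed (15.8%), DNAJB9, HERPUD1 and SYVN1, also lower in number 1. Of the 20 sensors and eIF2 factors, 1 passed (EIF2AK3, lower), which is 5% and near the share of all genes. Of the 10 other cytosolic and 16 mitochondrial synthetases, 0 passed (1 of each list at an unadjusted p under 0.05). Lists this short would hold few calls at the share of all genes. The genes named for the replicate number in these lists were chosen after their values were seen.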

How the data were processed

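HepG2 RNA was prepared with the QuantSeq 3′ kit, which reads polyadenylated transcripts near their ends, in 24 libraries (6 groups of 4). The values the authors deposited are raw read counts per gene, 1 column per library. According to the study's methods, single-end reads were trimmed, aligned with RNA STAR to hg19 and counted with featureCounts on Galaxy. The submitters' processing notes list hg38, with FastQC 0.72, cutadapt 1.16, STAR 2.7.5b, featureCounts 1.6.3 and limma 3.40.6. The strand setting and gene annotation are not given in the sources used here. Reads near a 3′ end depend on the annotated end of a gene.

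Of 13446 rows, 1414 without a gene identifier were left out (1.35 to 2.57% of reads), rows sharing an identifier were summed, and identifiers with identical counts were kept once, leaving 11927 genes. Every column was matched to a library, and 0 were unused. Totals ran from 3527000 to 4600951 reads. Counting error is therefore large for members near 1 CPM.

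The voom method of limma 3.58.1, with edgeR 4.0.16 under R 4.3.3, was fitted on all 24 libraries with 6 group means, after filterByExpr and TMM scaling, with Benjamini-Hochberg adjustment over 11152 genes at 0.05. CPM are counts over TMM-scaled library sizes. The replicate number was tested by an F test beside the group means. Alternatives were edgeR's quasi-likelihood test, DESeq2 1.42.0, other scalings, no filter, quality weights, a replicate block and leaving out libraries. The scripts were tested on simulated data. ATF4, DDIT3, TRIB3 and ASNS were named always, with members passing with both guides under siNC, in any knockdown, guide or interaction contrast, or among the 5 largest F of the replicate number. Other members are given by role. From the other lists, genes passing with both guides under siNC are named, and a list of NRF2 targets served as a check. The members and lists were chosen with earlier results of these data known. The labels do not say that the 4 libraries of a group came from separate cultures, so p-values measure the spread between these libraries. Positions of genes are those of GENCODE v44 lifted to GRCh37, and promoters those of RefSeq on GRCh38.p14, with 33 of 39 members matched by identifier.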

Additional observations from a re-analysis of the deposited data

Results flagged for a closer look

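Among 120 combinations of 20 named members and 6 groups, 3 had a highest or lowest library far from the other 3; chance gives about 1 in 20. ATF4 stood at 1088 CPM in siNC; sgKeap1-1 replicate 1, with the other 3 libraries at 816 to 819 CPM. SLC38A2 stood at 908 CPM in sitfeb/sitfe3; sgKeap1-2 replicate 1, with the others at 1296 to 1371 CPM. LARS1 stood at 123 CPM in that same library, with the others at 70.9 to 73.4 CPM. These are the 2 libraries that stood apart over all genes.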

How the results depend on the processing

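The count of members called was recomputed under each alternative, with the share of all genes called in the same fit in parentheses. For sgKeap1-1 under siNC (1 as reported, 10.9%), it was 2 by edgeR (11.3%), 2 by DESeq2 (12.5%), 4 with quality weights (15.9%) and 3 without the 2 libraries that stood apart (14.3%). For sgKeap1-1 under sitfeb/sitfe3 (1, 10.5%), it was 3 with quality weights (17.9%) and 3 without those 2 libraries (14.7%). For sgKeap1-2 under sitfeb/sitfe3 (10, 20.2%), it was 19 with quality weights (25.1%) and 17 without them (23.2%), and for the knockdown in sgKeap1-2 cells (1, 0.359%) it was 0 without them (0.612%). The replicate numbers were not taken to pair the libraries, since the labels do not say what they share. The correlations of same-numbered libraries' deviations from their group means ran from -0.163 to 0.43. Of the 60, 20 were above 0.1 and 25 were higher than for every other number. The F test still called differences between numbers in 18 of 39 members (46.2%, against 4.84% of all genes). The main fit leaves these differences in its spread. With the number as a replicate block the counts under siNC were 5 of 39 for sgKeap1-1 (13.1% of all genes) and 9 of 39 for sgKeap1-2 (17.4%). Under sitfeb/sitfe3 they were 4 of 39 (12.7%) and 19 of 39 (22.7%). The share of members called with sgKeap1-2 was then above that of all genes under both siRNA treatments. No other count moved by over 1.5 times.

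Leaving out 1 library or 1 replicate number at a time gave 0 to 9 (4.9 to 14.5%) for sgKeap1-1 and 1 to 8 (6.3 to 18.9%) for sgKeap1-2 under siNC, and 0 to 4 (4.39 to 15.5%) and 5 to 16 (11.2 to 23.2%) under sitfeb/sitfe3. It gave 1 to 3 (0.331 to 4.25%) for the averaged knockdown effect and 0 to 1 (0.0358 to 0.975%) for the knockdown with sgKeap1-2. The knockdown count stayed at 0 in sgCtrl cells (0.00886 to 0.116%) and in sgKeap1-1 cells (0.0179 to 0.331%). The counts for the guide contrast (0 to 0.00899%) and the interaction (0%) also stayed at 0. For the replicate number the count was 0 to 19 (0.0715 to 5.65%). Other scalings and no filter left each count within 1.5 times. Single calls were also lost in some alternatives, libraries and numbers left out included. Under siNC PHGDH was lost in 6 of 20 with sgKeap1-1 and in 2 of 20 with sgKeap1-2. With sgKeap1-2 there, SLC3A2 and PPP1R15A were each lost in 1 of 20. Under sitfeb/sitfe3 with sgKeap1-2, SLC1A5 was lost in 1 of 20 and SLC3A2 and PPP1R15A in 2 of 20 each. The averaged DDIT3 call was lost in 11 of 36 and that of NUPR1 in 0 of 36.

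The sign turned for changes that did not pass: ASNS with sgKeap1-1 (range when libraries or numbers were left out -0.643 to 0.082) to 0.082 and 0.05 without siNC; sgCtrl replicate 4 or replicate number 4, and with sgKeap1-2 (-0.234 to 0.499) to -0.234 and -0.096 without siNC; sgCtrl replicate 1 or number 1. TRIB3 with sgKeap1-1 (-0.213 to 0.27) turned to -0.003 with quality weights, -0.213 and -0.145 without siNC; sgCtrl replicate 1 or number 1, and -0.029 without siNC; sgKeap1-1 replicate 4. The causes were not tested beyond the libraries removed.

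Without a second gene-level measure, ALDH1L2, with group means of 0.788 to 4.9 CPM, is the member most limited by depth, and VLDLR and CARS1 fell below 1 CPM in single libraries. The RNA does not measure ATF4 protein.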
